A study of Rattus norvegicus with 8 samples.

Results

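Huntingtin and 4 proteins known to bind it were followed in a rat cell line that makes a fragment of mutant human huntingtin on demand. The 5 genes are Htt, which encodes huntingtin, and Hap1, Dlg4, Pacsin1 and Sp1. The rule took every probe set whose single gene symbol was 1 of these 5, and it uses no measured value, though it was written with earlier results of these data known. It found 5 of the 8799 probe sets on the array, 2 for Htt and 1 each for Hap1, Dlg4 and Sp1, and so 4 of the 4737 genes that the array names with a single symbol. No probe set carried Pacsin1 as its single symbol, and Pacsin1 was not analysed here. The probe sets named with several symbols included 0 that listed a member.

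The samples came from Htt14A2.5, a PC12 line derived from a rat adrenal medullary tumour and stably carrying a truncated mutant exon 1 of human huntingtin. Ponasterone, a steroid that switches the transgene on, was given for 48 h, and 4 induced samples (+PA in the titles) were compared with 4 uninduced samples (-PA) of the same line. All 8 samples carry the transgene, so the uninduced group is the same line without the inducer and not a line without mutant huntingtin. Among these samples none had the inducer without the transgene, and effects of ponasterone and of the fragment cannot be told apart. The labels name 1 line and state neither whether it is a clone nor whether its replicates were grown as separate cultures, so p-values measure the spread between these samples, which may be technical. Groups were taken from the titles, since the description of every sample, uninduced ones included, speaks of induction. Both Htt probe sets are assigned to the rat gene and do not report the human transgene, whose level was not analysed here.

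Huntingtin is a large scaffold protein whose mutant form, with an expanded glutamine tract encoded by exon 1, causes Huntington's disease. It takes part in vesicle transport along microtubules, in endocytosis and in transcription. Of the partners here, Hap1, Pacsin1 and Sp1 each stand for 1 of these roles. Hap1 links huntingtin to the dynein and kinesin motors, Dlg4 (PSD-95) holds glutamate receptors at the synapse, Pacsin1 (syndapin) binds dynamin during endocytosis, and Sp1 is a transcription factor that binds GC boxes and is bound by the mutant protein.

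Signals are linear and scaled, and each array had a 2% trimmed mean between 500.8 and 500.9. The level that 38 control probe sets for foreign or reverse-strand sequences reached at their 95th percentile, called the background level below, lay between 102 and 183 on the 8 arrays. Array medians lay between 97.5 and 134.9. Of 14 chromaffin markers with a probe set, 8 were above the background level on every array, among them Chgb, Phox2a and Gata3. Another 4, Dbh, Ddc, Slc18a2 and Pcsk2, were not above it on any array. By the limma test described below, 4 of the 14 changed, with Ret and Gap43 higher (log2 differences 0.96 and 0.61) and Phox2a and Gata3 lower (-0.70 and -0.68), as did the glial marker Pmp22 (0.81). The summed signal of these 14 was 24477 to 25610 in induced and 24444 to 29701 in uninduced arrays. Of markers of other cell types, 2 of 7 for fibroblasts (Col1a1 and Col3a1), 3 of 6 for Schwann cells and glia (Pmp22, Mag and Cnp), 1 of 7 for leukocytes (Cd14) and 0 of 6 for adrenal cortex were above the background level on every array. Their summed signals were 1553 to 1922 induced and 1409 to 1785 uninduced for fibroblasts, 1064 to 1159 and 883 to 1188 for Schwann cells and glia, 336 to 654 and 323 to 579 for leukocytes, and 103 to 254 and 160 to 292 for adrenal cortex. Their part in the results was not tested. In RNA from whole cultures, fewer cells of a kind and less RNA per cell cannot be told apart.

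No tested member passed the test for a change after induction. Differences are on the log2(signal + 7) scale, induced minus uninduced, from limma fitted to 6129 probe sets that passed a low-signal filter, with Benjamini-Hochberg adjustment and a threshold of 0.05. Of the 5 member probe sets 4 were tested, for Htt, Dlg4 and Sp1, and 0 of 4 passed, where 433 of all 6129 tested probe sets (7.06%) did. The 433 divide into 251 higher (4.1%) and 182 lower (2.97%). With arrays centred on their medians 230 passed, 167 higher and 63 lower, and still 0 members. At an unadjusted limma p under 0.05 there was 1 of 4 members, Dlg4, against 18.0% of all tested probe sets. The induced and uninduced arrays overlapped for every member probe set, while 13.6% of tested probe sets showed no overlap between the groups. With 4 probe sets, their count cannot be told apart from these shares.

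Htt was read near the background level by both of its probe sets. The promoter of rat Htt is shown first because its GC boxes are the sites that Sp1 is known for, beside that of Hap1, whose window lacks them. The sequences are RefSeq's (GRCr8), each running from 250 bases before to 50 after the annotated start, printed on the gene's strand. Capitals mark the motifs found, which are the GC box (GGGCGG, or its reverse complement), the cAMP response element (TGACGTCA, the same on both strands) and the TATA box (TATAAA, either strand).
Htt, chr14:80219619-80219918, minus strand: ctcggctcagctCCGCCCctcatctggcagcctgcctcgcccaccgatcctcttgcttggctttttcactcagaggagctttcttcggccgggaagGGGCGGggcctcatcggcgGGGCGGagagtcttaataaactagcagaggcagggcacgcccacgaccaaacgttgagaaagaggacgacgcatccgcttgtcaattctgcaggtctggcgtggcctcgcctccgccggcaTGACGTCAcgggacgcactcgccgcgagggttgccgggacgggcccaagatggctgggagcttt
Hap1, chr10:85786454-85786753, minus strand: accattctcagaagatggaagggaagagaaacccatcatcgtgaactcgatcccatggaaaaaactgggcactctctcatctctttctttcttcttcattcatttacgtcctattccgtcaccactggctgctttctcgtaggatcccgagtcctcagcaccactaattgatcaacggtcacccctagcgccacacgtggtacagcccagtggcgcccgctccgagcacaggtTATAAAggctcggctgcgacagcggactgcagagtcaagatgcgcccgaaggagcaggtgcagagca

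The Htt window held 3 GC boxes, at 238, 154 and 135 bases before the start, and 1 cAMP response element 14 bases before it. The Hap1 window held 0 GC boxes and 1 TATA box, 17 bases before the start. Sp1's own window (chr7:135419800-135420099, plus strand) held 1 GC box, 124 bases before the start, and that of Dlg4 (chr10:55239534-55239833, plus strand) held 0 of all 3 motifs. GC content was 64.3% for Htt, 53.7% for Hap1, 65.7% for Sp1 and 68.7% for Dlg4. Among all 33469 promoter windows of this length in the table, 33.1% held a GC box, 8.97% held 3 or more, 1.83% held the cAMP response element and 14.2% the TATA box. In the 2757 windows of genes tested here and not called, the shares were 61.2%, 19.6%, 2.65% and 9.14% in turn. None of the 3 motifs overlapped another in these 4 windows. A match describes letters in the window and does not show that a factor binds there.

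The first Htt probe set (U18650_at) gave signals of 87.8, 214.2, 138.2 and 130.4 in induced replicates 1 to 4 and 124.8, 142.9, 114.3 and 92.9 in uninduced replicates 1 to 4. Only induced replicate 2 lay above all 4 uninduced arrays, and induced replicate 1 lay below all of them. The means were 143 ± 52.6 induced and 119 ± 20.9 uninduced (SD, n = 4 each). The log2 difference was 0.20 ± 0.28 (SE), with a 95% interval from -0.40 to 0.80 and a limma adjusted p of 0.797. As a fold this unadjusted interval runs from 0.758 to 1.74. Without induced replicate 2 the difference was -0.0084 (limma adjusted p = 0.995), so the sign of this value rests on that array.

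The second Htt probe set (U01022_s_at) gave 102.9, 129.4, 127.3 and 89.6 in induced replicates 1 to 4 and 118.4, 87.1, 63.9 and 127.2 in uninduced replicates 1 to 4. Induced replicates 2 and 3 were marginally above the highest uninduced array, and the other induced arrays lay within the uninduced range. The means were 112 ± 19.3 and 99.2 ± 29.1 (SD, n = 4 each), a log2 difference of 0.20 ± 0.27 (95% interval -0.40 to 0.79, limma adjusted p = 0.798). Uninduced replicate 3 was the lowest array, and without it the difference was 0.019 (adjusted p = 0.989).

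Both probe sets were highest in induced replicate 2. They were above the array's own background level on 3 of 8 arrays for U18650_at and 2 of 8 for U01022_s_at. The difference between the log2 signals of the 2 probe sets was 0.28 ± 0.41 in induced and 0.27 ± 0.56 in uninduced arrays (SD, n = 4 each). The change in that difference, 0.0032, had a two-sided exact permutation p of 1.0 over the 70 assignments of the arrays, the single such pair tested, where the smallest p possible is 0.0286.

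Hap1, the adaptor between huntingtin and the vesicle motors, was read far below the background level (U38373_s_at). It gave 1.8, 2.1, 3.0 and 1.7 in induced replicates 1 to 4 and 1.8, 1.3, 2.5 and 2.3 in uninduced replicates 1 to 4. All 8 values lay between 1.3 and 3.0, and the groups overlapped. It fell under the low-signal filter (a mean of 36.0 over the 8 arrays) and was not tested with the others. In the fit without that filter, where 4.35% of 8740 probe sets passed, the log2 difference was 0.028 ± 0.12 (limma adjusted p = 0.970). With signals of about 2 beside an added constant of 7, that value carries almost no information on a change in Hap1, and no fold is given.

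Dlg4, the synaptic scaffold PSD-95, was the single member above the background level on all 8 arrays and had the largest difference (M96853_at). It gave 246.1, 331.2, 292.6 and 476.8 in induced replicates 1 to 4 and 188.5, 244.6, 254.0 and 226.0 in uninduced replicates 1 to 4. Induced replicates 2, 3 and 4 lay above every uninduced array, and induced replicate 1 lay between uninduced replicates 2 and 3. The means were 337 ± 99.7 and 228 ± 29.0 (SD, n = 4 each). The log2 difference was 0.51 ± 0.21, a 1.43-fold higher level, with a 95% interval from 0.064 to 0.96 that is not adjusted for the number of probe sets. The unadjusted limma p was 0.0285 and the adjusted p 0.202, so Dlg4 did not pass.

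The highest Dlg4 value came from induced replicate 4, the array with the highest median signal (134.9) and the highest ratio of 3' to 5' beta-actin control signal (a log2 ratio of 0.575, against -0.67 to 0.568 on the others). Its ratio for the Gapdh control, 0.41, lay inside the range of the others (0.20 to 0.56). Without this array the Dlg4 difference was 0.33 (limma adjusted p = 0.358), and with arrays centred on their medians it was 0.55 (adjusted p = 0.180). Without any other single array it lay between 0.43 and 0.65. Over the 18 alternatives the adjusted p ranged from 0.110 to 0.410, and the sign was positive in all of them.

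Sp1, the GC box factor, was read below the background level on 7 of 8 arrays (D12768_at). It gave 78.4, 102.9, 85.1 and 69.9 in induced replicates 1 to 4 and 94.0, 93.3, 94.0 and 91.3 in uninduced replicates 1 to 4. Induced replicate 2 lay above all uninduced arrays and the other 3 induced arrays lay below all of them. The uninduced arrays were close together at 93.2 ± 1.28 and the induced arrays spread wider at 84.1 ± 14.01 (SD, n = 4 each). The difference in spread was not tested. The log2 difference was -0.15 ± 0.24 (95% interval -0.68 to 0.38, limma adjusted p = 0.839). Leaving out 1 array moved it between -0.24 and -0.072, both from leaving out an induced array (replicates 2 and 4), and the sign was negative in all 17 alternatives in which it was tested.

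**Figure D1:**
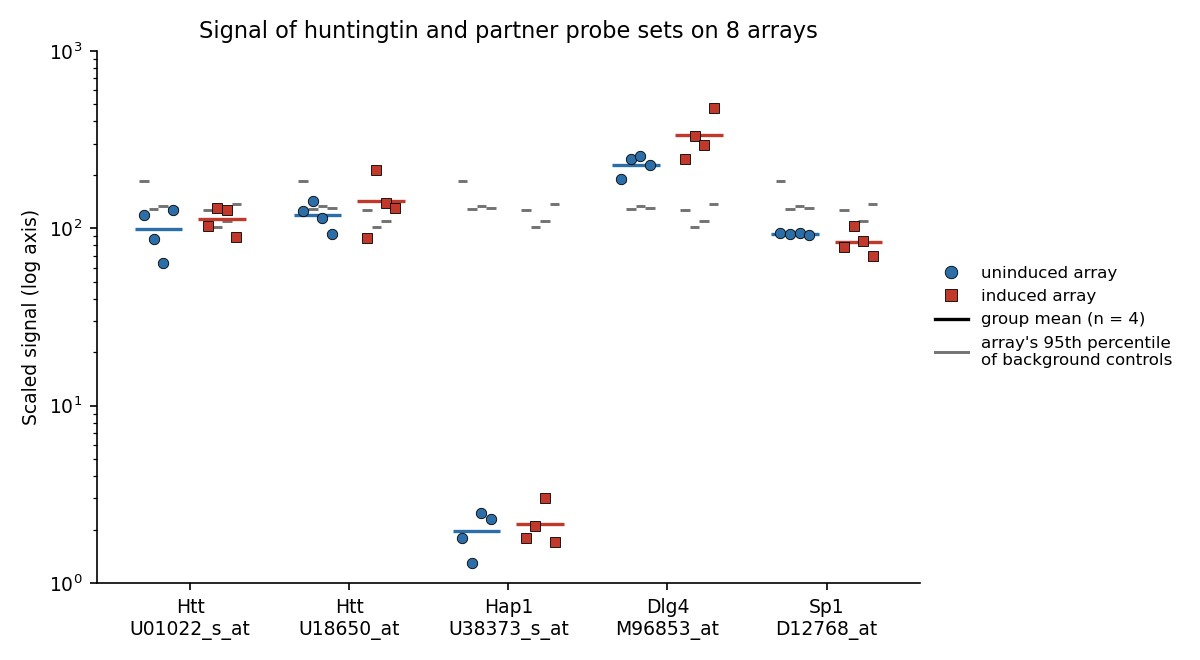
Scaled signal (log axis) of the 5 member probe sets, with 1 point per array, coloured bars for group means (n = 4) and grey ticks for each array's 95th percentile of 38 background controls. Dlg4 sits above the ticks on all 8 arrays, both Htt probe sets and Sp1 sit around or under them, and Hap1 lies between 1.3 and 3.0.

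The members were compared with other genes by the shape of their profile over the 8 arrays. Likeness is the root mean square difference between log2 profiles after each was centred on its own mean. Candidates had 1 symbol, a signal of at least 100 on every array and an SD between 0.8 times that of the member and the inverse of that ratio. The closest to Dlg4 of 658 candidates was Apbb3, an adaptor that binds the amyloid precursor protein, at 0.14 (median of all candidates 0.50), followed by Fbp2, a gluconeogenic phosphatase, at 0.16 and Vps33b, a vesicle tethering protein, at 0.17. Like Dlg4, all 3 were highest in induced replicate 4, and none passed the limma test (adjusted p from 0.131 to 0.290). The closest to Htt of 740 candidates was Pafah1b1 (AA801441_at), a regulator of dynein, at 0.27 (median 0.50), then Rhd at 0.28 and the phosphatase Ptpn12 at 0.28. That Pafah1b1 probe set passed (0.53, adjusted p = 0.0355), whereas its brightest probe set (rc_H31367_at) differed by -0.026. The closest to Sp1 of 839 candidates were Phldb1 at 0.069, Ndrg3 at 0.071 and the Notch-modifying enzyme Mfng at 0.074 (median 0.21). These profiles share the same arrays, and likeness is a description with no test. The floor of 100 was not applied to the members. Htt (U18650_at) was above the background level on 3 of 8 arrays and Sp1 on 1 of 8, which limits what their likeness can show.

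**Figure D2:**
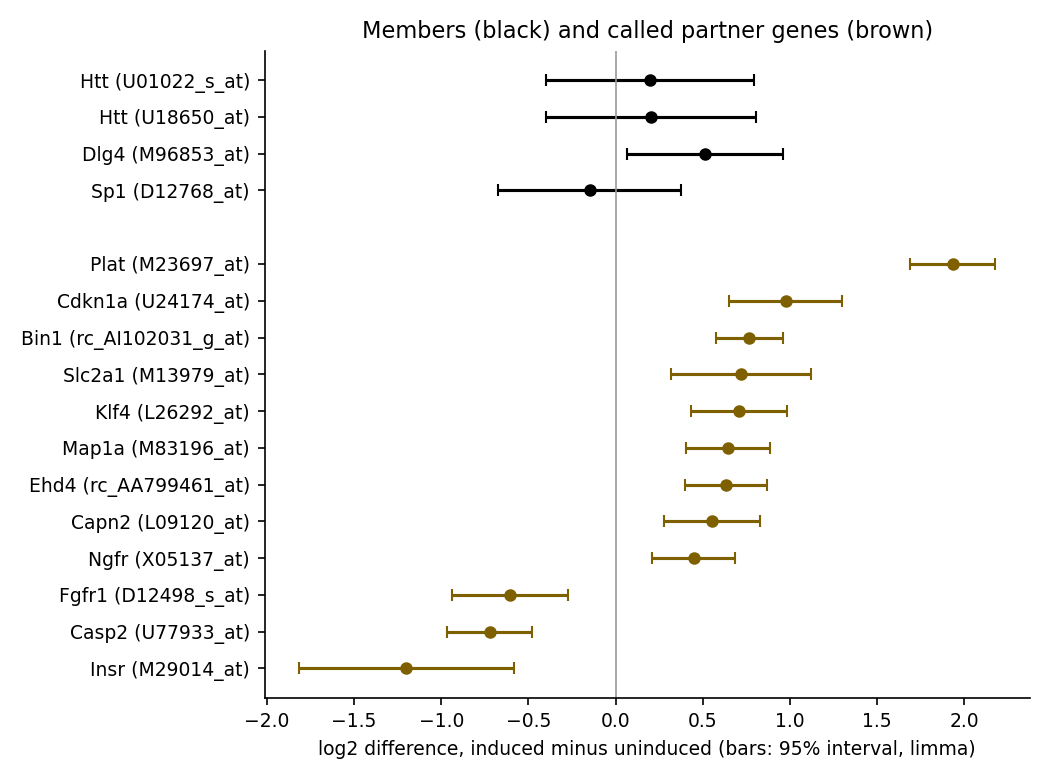
Fitted log2 differences, induced minus uninduced, with unadjusted 95% intervals from limma, for the 4 tested member probe sets (black) and the 12 list genes that passed (brown). These include Sp1 target genes, which are not partners of huntingtin. The Htt and Sp1 intervals cover 0, the Dlg4 interval runs from 0.064 to 0.96, and the list genes range from -1.20 (Insr) to 1.93 (Plat).

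The setting of the members was described with 7 lists of genes, each gene read by its brightest probe set. The lists hold partners and relatives of the members, genes with Sp1-driven promoters and genes of other polyglutamine diseases. Another 5 genes, Grb2, Pafah1b1, Arrb2, Arpc1b and Col1a1, had a dimmer probe set that passed and are not counted as called. Over the 158 genes tested, counted once, 12 passed (7.59%), 9 higher and 3 lower, beside 261 of all 3623 genes (7.2%), 156 of them higher (4.31%) and 105 lower (2.9%). Their median log2 difference was -0.020, against -0.054 over all genes. Except where another probe set is named, values below are log2 differences with limma adjusted p.

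Of other huntingtin interactors and the enzymes that cut huntingtin, 20 of 22 with a probe set were tested. Of these 1 rose and 1 fell (median -0.091). An unadjusted limma p under 0.05 was reached by 2 of 20, beside 18.8% of all 3623 genes. A dimmer probe set of the adaptor Grb2 (rc_AI170776_s_at) also rose, by 0.49 (adjusted p = 0.0257), whereas the brightest differed by -0.013. The protease Capn2 rose by 0.55 (adjusted p = 0.0192), a call kept in 3 of 8 fits that left out a single array (adjusted p up to 0.0657, when induced replicate 1 was dropped). The caspase Casp2 fell by 0.72 (adjusted p = 0.0017), while its other probe sets, at -0.49 and -0.55, did not pass. With arrays centred on their medians the call was lost (adjusted p = 0.0624). Casp6, which cleaves huntingtin, differed by 0.57 and the corepressor Ctbp1 by -0.17 (adjusted p = 0.291 and 0.384).

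Among the motors, dynactin and other proteins of Hap1 transport, 16 were tested and 0 passed (median 0.029). An unadjusted limma p under 0.05 was reached by 3 of 16, near the 18.8% of all 3623 genes. Pafah1b1, named above for its likeness to Htt, is in this list, where its dimmer probe set passed and its brightest did not. The centrosomal satellite protein Pcm1 differed by -0.82 (adjusted p = 0.0524) and the vesicle GTPase Rab3a by -0.70. Both had no overlap between the groups, as had 13.6% of all tested probe sets. The kinesin light chain Klc1 differed by 0.32 and the dynein chain Dync1i2, above the background level on 2 of 8 arrays, by 0.60. For Rab3a, Klc1 and Dync1i2 the adjusted p ran from 0.150 to 0.349.

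Of the genes listed for the Dlg4 complex, relatives of Dlg4 included, 35 of 48 with a probe set were tested. An unadjusted limma p under 0.05 was reached by 3 of 35, beside 18.8% of all 3623 genes. By adjusted p, 1 rose and 0 fell (median -0.047). It was Map1a, a microtubule protein that binds Dlg4, which rose by 0.64 (adjusted p = 0.0034), from 1177 ± 73.0 to 1852 ± 236 (SD, n = 4 each), a call lost without replicate 2 of both groups (0.56, adjusted p = 0.0550). Its second probe set fell under the filter. The junction protein Tjp1 differed by -0.54, the scaffold Dlgap4 by 0.45 and Cript by 0.27, and none passed (adjusted p from 0.193 to 0.294). The relatives of Dlg4 were Dlg1 at -0.14 and Dlg2 at -0.67, neither called (adjusted p = 0.840 and 0.374), and Dlg3, under the filter. Dlg1 was above the background level on 6 of 8 arrays and Dlg2 on no array.

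Endocytic genes of the Pacsin1 list had 31 of 34 tested, with 2 up and 0 down (median 0.039). At an unadjusted limma p under 0.05 there were 9 of 31, where 18.8% of all 3623 genes were. The membrane-bending protein Bin1 rose by 0.77 (adjusted p = 0.00020) and by 0.58 in its second probe set, and the recycling protein Ehd4 rose by 0.63 (adjusted p = 0.0034). Of the receptor adaptor Arrb2, the brighter probe set differed by -0.43 (adjusted p = 0.0688) and the dimmer one (M91590_at) fell by 0.66 (0.0366). Of the actin-nucleating subunit Arpc1b, the brighter differed by 0.31 (adjusted p = 0.0913) and the dimmer (AF083269_g_at) rose by 0.55 (0.0029). Pacsin2, the relative of Pacsin1, differed by 0.25 and the dynamin Dnm1 by 0.20 (adjusted p = 0.703 and 0.401).

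Of Sp1 relatives and coregulators, 22 of 24 were tested, with 1 up and 0 down (median -0.085). An unadjusted limma p under 0.05 was reached by 5 of 22, beside 18.8% of all 3623 genes. Klf4, a zinc finger factor that also binds GC-rich sites, rose by 0.71 (adjusted p = 0.0043), and its second probe set at 0.79 did not pass. Taf10, Med1 and Klf9 differed by -0.25, -0.43 and -0.36 (adjusted p from 0.173 to 0.258). Sp4 fell under the filter.

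Of genes known as examples of Sp1-driven promoters, 34 of 42 were tested, with 4 up and 2 down (median -0.011). That is 17.6%, beside 7.2% of all 3623 genes. An unadjusted limma p under 0.05 was reached by 12 of 34, beside 18.8% of all 3623 genes. This list too was chosen with earlier results of these data known, and neither share was tested. The plasminogen activator Plat rose by 1.93 (adjusted p = 1.14e-06), the cyclin kinase inhibitor Cdkn1a by 0.98 (0.0015), the glucose transporter Slc2a1 by 0.72 (0.0349) and the neurotrophin receptor Ngfr by 0.45 (0.0267). The insulin receptor Insr, under the background level on 3 of 4 induced arrays, fell by 1.20 (0.0225) and the growth factor receptor Fgfr1 by 0.61 (0.0316). Another Fgfr1 probe set (S54008_i_at) also fell, by 0.96 (adjusted p = 0.0172). Plat and Cdkn1a passed in all 8 fits without 1 array, Insr in 5, Ngfr in 4, Fgfr1 in 2 and Slc2a1 in 1. The highest adjusted p in these fits was 0.0809 for Insr, 0.0889 for Ngfr and 0.108 for Slc2a1, each without uninduced replicate 2, and 0.109 for Fgfr1 without uninduced replicate 3. Another Ngfr probe set (U25650_f_at) differed by -0.33 and did not pass. Of the collagen gene Col1a1, also a fibroblast marker, the brightest probe set (Z78279_at) differed by 0.13 (adjusted p = 0.838), while the dimmer M27207mRNA_s_at rose by 1.05 (0.0300) and rc_AI231472_s_at by 0.71 (0.0244). Drd1 and Drd2, dopamine receptors often studied in Huntington's disease, fell under the filter.

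Of the genes of other polyglutamine diseases, 4 were tested and 0 passed (median -0.18). An unadjusted limma p under 0.05 was reached by 1 of 4, beside 18.8% of all 3623 genes. Atn1 differed by -0.56 (adjusted p = 0.127), Tbp by -0.28, Atxn3 by -0.083 and Cacna1a by 0.037 (adjusted p from 0.488 to 0.971). Atxn3 was above the background level on 1 of 8 arrays.

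**Figure D3:**
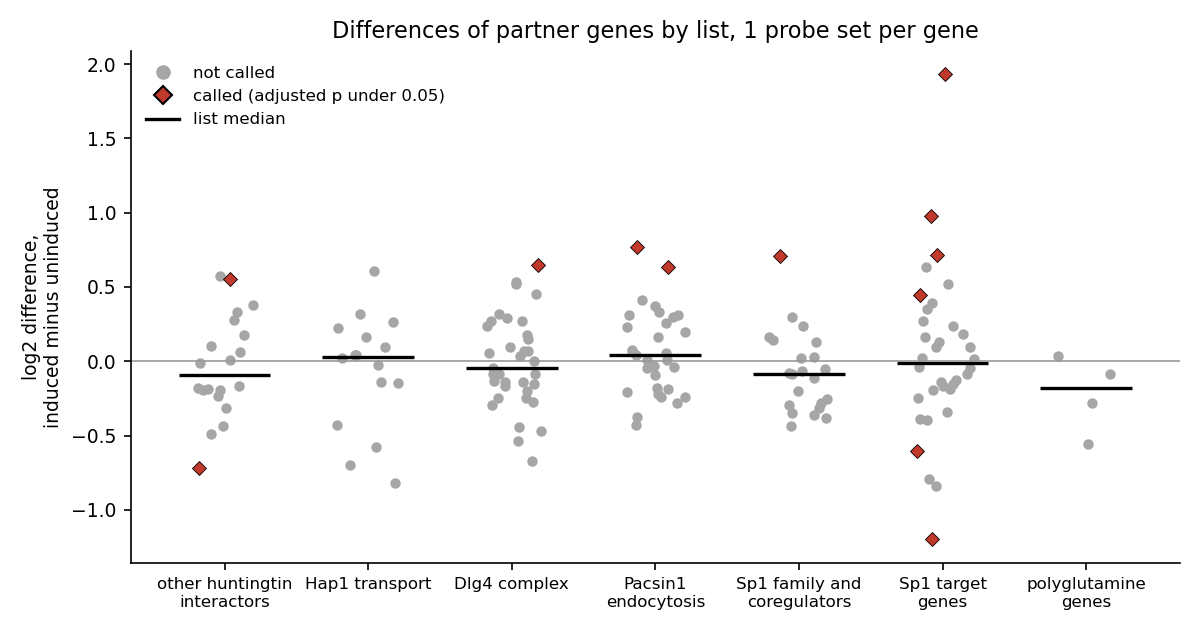
Fitted log2 differences, induced minus uninduced, of the genes in 7 lists, with 1 point per gene, diamonds for genes at an adjusted p under 0.05 and black bars for list medians. The medians lie between -0.18 and 0.039, and the diamonds number 6 in the Sp1 target list, 2 in each of the huntingtin interactor and endocytosis lists, and 1 in each of the Dlg4 and Sp1 coregulator lists.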

How the data were processed

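RNA of 8 samples was measured on 1 Affymetrix array each, as the names of the control probe sets show. The deposited values are intensities, 1 linear scaled signal per probe set, and near-equal trimmed means show that the authors had scaled the arrays. Which program did so is not given in the sources used here, and no detection calls were used. Probe sets were named through the platform annotation, which gave 1 symbol for 7018, several for 308 and none for 1473. The gene identifiers of the 4 members and of all 158 list genes tested had the same symbol in the RefSeq table (GRCr8).

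From these, log2(signal + 7) was computed, 7 being the rounded 10th percentile. The 59 control probe sets and 2611 others with a mean under the 30th percentile (36.0) were left out. Induced minus uninduced was fitted to all 6129 remaining with limma 3.58.1 in R 4.3.3 (eBayes with an intensity trend), adjusted over all of them. Errors of differences are standard errors with 6 residual and 5.77 prior degrees of freedom. The number of arrays limits the precision.

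The members and lists were chosen with earlier results of these data known. Named genes were the members, every called list gene (up to 8 per list, filled to 4 by lowest p) and the 3 most like each member. Others named, such as Dlg1, Pacsin2, Sp4, the dopamine receptors and the dimmer probe sets that passed, were chosen after their values were seen. Alternatives were other added constants (1 and 50), other filters, 2 scalings, no trend, gene means, the replicate number as a block and left-out arrays.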

Additional observations from a re-analysis of the deposited data

Results flagged for a closer look

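Of 70 groups of 4 arrays checked (the members and the named list genes), 3 held 1 array far from the rest. That is no more than the 1 in 20 that chance gives. None was a member. The polyglutamine gene Atxn3 read 94.6 in induced replicate 3 against 30.6 to 35.8 in the other induced arrays, and 195 in uninduced replicate 3 against 25.0 to 29.7. Both groups belong to 1 probe set, which was above the background level only in uninduced replicate 3. The kinesin light chain Klc1 read 1477 in uninduced replicate 4 against 1180 to 1219 in the other uninduced arrays.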

How the results depend on the processing

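No member passed under any of the 18 alternatives in which it was tested. The sign of U18650_at (Htt) changed without induced replicate 2, its differences without 1 array running from -0.0084 to 0.40, while the other tested member probe sets kept their signs. The change between the Htt probe sets was -0.0032 with 1 added in place of 7 and ran from -0.23 to 0.17 without 1 array; the cause was not tested. Of all probe sets, 230 (167 higher, 63 lower) passed with median centring, 279 (101 lower) without the trend and 221 (141 higher, 80 lower), with fewer samples, without replicate 2 of both groups (their source labels differ in wording); that fit called 7 list genes in place of 12. Gene means, over 3623 genes, called 290, of which 165 were higher. The brightest probe set of each gene had called 261, of which 156 were higher. The count of lower probe sets without 1 array ran from 112 (uninduced replicate 3 left out) to 164, with 119 when uninduced replicate 2 was left out. Deviations of same-numbered induced and uninduced arrays correlated between -0.14 and 0.19, and those of differently numbered arrays between -0.21 and 0.20. The numbers were therefore not taken to pair the samples. With the replicate block 367 passed, and Dlg4 differed by 0.51 (limma adjusted p = 0.197). Centring ended the calls of Casp2, Capn2, Fgfr1 and Ngfr (adjusted p = 0.0624, 0.140, 0.157 and 0.167), dropping the trend those of Capn2, Fgfr1 and Ngfr (0.0646, 0.0849 and 0.117), and the block those of Capn2, Fgfr1, Ngfr and Slc2a1 (0.0615, 0.0801, 0.0764 and 0.0527). Slc2a1 also missed the threshold with no filter (0.0575), and Ngfr with gene means (0.058, adjusted p = 0.867). Low signal limits Htt, Hap1 and Sp1.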

Other observations

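The GC box that Sp1 is known to bind was also counted in the promoters of genes that passed the test. A window was given for 133 of 156 genes called higher, 87 of 105 called lower and 2757 of 3362 not called. At least 1 GC box was found in 71.4% of the higher, 71.3% of the lower and 61.2% of the genes not called, beside 33.1% of all windows in the table. The median GC content was 62.0%, 62.0% and 61.0% in turn. Of the tested Sp1 target list, 22 of 34 genes had a window and 72.7% of these held a GC box. The cAMP response element found in the Htt promoter was in 6 of the 133 higher (4.51%) and 1 of the 87 lower (1.15%). It was in 73 of the 2757 not called (2.65%) and 0 of the 22 in the Sp1 target list. These shares were not tested.

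The glutamate receptor subunits of the NMDA type that Dlg4 binds were read above the background level on all 8 arrays by their brightest probe sets, while of their 6 other probe sets 4 were above it on no array, 1 on 1 array and 1 (of Grin2c) on all 8. Grin1 differed by -0.16, Grin2a by 0.097, Grin2b by 0.053, Grin2c by 0.072 and Grin2d by -0.089 on the log2 scale, and none passed (limma adjusted p from 0.736 to 0.955). Bdnf, whose vesicles huntingtin and Hap1 help to carry, gave 151 induced and 205 uninduced in its brightest probe set (log2 difference -0.43, limma adjusted p = 0.387).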
